A study of Mus musculus with 10 samples.

Results

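The transport genes of the colonocyte surface were followed in mouse colonic organoids, which are epithelial cultures grown in gel from the stem cells of colon crypts. There are 10 such genes among the 18820 genes that the arrays measured with a probe set of a single gene symbol: Slc9a3, Slc9a2, Slc26a3, Slc5a8, Slc16a1, Car1, Car4, Aqp8, Scnn1a and Cftr. They were picked by name, and each was measured by 1 probe set, so none had to be chosen among several. Expression was read on Affymetrix whole-transcript arrays as log2 values, so a difference of 1 is a doubling. The 10 arrays formed 4 groups: 3 of Pparg knockout organoids given 1 µM rosiglitazone for 24 h, 2 of knockout organoids given vehicle (0.1% DMSO), 3 of wild-type organoids given rosiglitazone and 2 of wild-type organoids given vehicle. Knockout mice were homozygous for Pparg with loxP sites around exons 1 and 2 and carried Cre under the villin promoter, which is active in intestinal epithelium. Wild-type animals were their littermates, all mice were males on a C57BL/6J background, and no age was given. Rosiglitazone is a drug that activates PPARγ, the nuclear receptor that Pparg encodes. The organoids came from 6 mice, 3 of each genotype, and 4 of them gave arrays of both treatments. Mouse 45 (knockout) and mouse 48 (wild type) gave a rosiglitazone array only. All groups were kept in a medium with Wnt, R-spondin, Noggin and EGF, which maintains crypt stem cells.

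The absorptive cells of the colon take up sodium, chloride, water and the short-chain fatty acids that bacteria make from fibre. Sodium enters at the apical side by exchange for protons (Slc9a3, Slc9a2) or through the epithelial sodium channel (Scnn1a), and chloride enters by exchange for bicarbonate (Slc26a3), while Cftr lets chloride and bicarbonate out. Carbonic anhydrases (Car1, Car4) make the protons and bicarbonate that these exchangers use, Slc5a8 and Slc16a1 carry short-chain fatty acids and lactate, and Aqp8 passes water. In the colon many of these genes are markers of mature surface cells.

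Across all arrays, median log2 levels over the 35556 probe sets of the deposited table lay between 3.54 and 3.72. Principal component 1 (27.4% of the variance) set both arrays of mouse 46 (-31.8 in rosiglitazone and -39.3 in vehicle) apart from the others (-4.1 to 19.6). Colonocyte markers were present, with a mean over 15 genes of 8.45 to 9.03 and 8.59 to 8.85 in knockout arrays (rosiglitazone and vehicle), against 8.46 to 9.01 and 8.74 to 9.01 in wild-type arrays. Markers of cells outside the epithelium had array means of 2.56 to 2.72 over 15 genes, and all 15 lay below the median of the tested probe sets, 4.51. Goblet cell markers (9 genes measured) set apart the array of mouse 45, at 7.54, against 3.56 to 5.69 in the other 9 arrays. Its Muc2, the main mucin of goblet cells, read 8.47. Pparg read 7.37 to 8.78 with rosiglitazone and 8.47 to 8.58 with vehicle in knockout arrays, against 7.59 to 8.30 and 8.34 to 8.41 in wild-type arrays. The position of its probes relative to the floxed exons was not known here. The deletion is therefore not checked by Pparg, and the genotype is that of the labels.

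Promoter sequences were held by RefSeq tables of GRCm38.p6 for 7 of the 10 genes, from 250 bases before to 50 bases after the gene's start. No sequence was held for Slc9a2, Car1 and Scnn1a. The promoters of Slc9a3, Slc5a8 and Cftr are shown because the differences of these genes are described in detail below. None of the 10 genes had an adjusted p under 0.05 in the main fit. Capitals mark each GC box, GGGCGG, on either strand (CCGCCC where it lies on the other strand).
Slc9a3 (chr13:74121163-74121462, + strand): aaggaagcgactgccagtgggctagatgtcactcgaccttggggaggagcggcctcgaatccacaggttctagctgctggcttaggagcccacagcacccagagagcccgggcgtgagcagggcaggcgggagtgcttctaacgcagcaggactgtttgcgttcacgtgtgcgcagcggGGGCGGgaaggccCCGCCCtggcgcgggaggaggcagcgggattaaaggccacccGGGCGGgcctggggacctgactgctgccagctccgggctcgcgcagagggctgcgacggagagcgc
Slc5a8 (chr10:88885742-88886041, + strand): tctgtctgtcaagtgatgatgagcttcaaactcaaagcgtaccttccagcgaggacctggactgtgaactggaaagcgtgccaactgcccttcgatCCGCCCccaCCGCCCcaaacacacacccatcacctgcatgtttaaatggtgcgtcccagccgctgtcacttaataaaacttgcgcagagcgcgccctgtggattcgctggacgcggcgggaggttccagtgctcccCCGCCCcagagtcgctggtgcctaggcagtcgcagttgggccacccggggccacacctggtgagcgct
Cftr (chr6:18170437-18170736, + strand): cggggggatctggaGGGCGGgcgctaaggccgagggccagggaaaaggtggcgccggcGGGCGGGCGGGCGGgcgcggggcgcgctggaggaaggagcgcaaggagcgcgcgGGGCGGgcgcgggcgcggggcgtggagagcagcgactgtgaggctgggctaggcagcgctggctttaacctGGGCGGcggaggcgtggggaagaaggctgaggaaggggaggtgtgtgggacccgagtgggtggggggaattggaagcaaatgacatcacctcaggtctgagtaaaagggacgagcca

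The promoter of Slc26a3 is shown because it alone among the 7 held the core motif of nuclear receptors, AGGTCA. Capitals mark that motif and a TATA box, TATAAA.
Slc26a3 (chr12:31437969-31438268, + strand): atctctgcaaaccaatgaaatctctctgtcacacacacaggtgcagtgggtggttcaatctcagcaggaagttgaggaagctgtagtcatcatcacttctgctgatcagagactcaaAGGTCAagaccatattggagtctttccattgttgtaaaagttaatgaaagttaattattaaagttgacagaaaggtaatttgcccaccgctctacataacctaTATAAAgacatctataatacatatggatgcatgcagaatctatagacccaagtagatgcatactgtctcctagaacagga

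On both strands, AGGTCA was found in 1 of the 7 promoters, against 16.3% of the 32851 promoters in the table. Its direct repeat with 1 base between the copies, the form that PPARγ and its partner RXR bind, was found in 0 of 7 and in 0.0396% of all. GC boxes were found in 4 of 7 (Slc9a3, Slc5a8, Slc16a1 and Cftr) against 35.7% of all promoters. TATAAA was found in 2 of 7 (Slc26a3 and Car4) against 13.6%, and the motif of CDX factors, TTTATNG, in 2 of 7 (Car4 and Aqp8) against 10.9%. In Car4 the TATAAA and CDX matches overlap. These matches describe the letters of the windows and say nothing of binding.

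Of the 10 genes, 8 had a mean over the 10 arrays above the median of all tested probe sets. Aqp8 lay below the array's median over the tested probe sets in 10 of 10 arrays and Slc26a3 in 9 of 10. Differences in these dim genes may therefore be compressed. Car4 lay below that median in 6 of 10, Slc9a3 in 3 of 10 and Slc9a2 in 1 of 10. Differences that rest on their low arrays, such as Slc9a3 in knockout vehicle (3.59 and 3.66), may be compressed as well. Slc16a1 varied least, with a range of 0.34 over all arrays, while Car4 (range 3.52), Slc9a3 (3.51) and Slc9a2 (2.77) varied most. In bulk cultures, fewer cells of a type and less RNA per cell cannot be told apart. Values below are given in the order of mice 44, 45 and 46 for knockout rosiglitazone, 44 and 46 for knockout vehicle, 42, 47 and 48 for wild-type rosiglitazone, and 42 and 47 for wild-type vehicle.

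**Figure D1:**
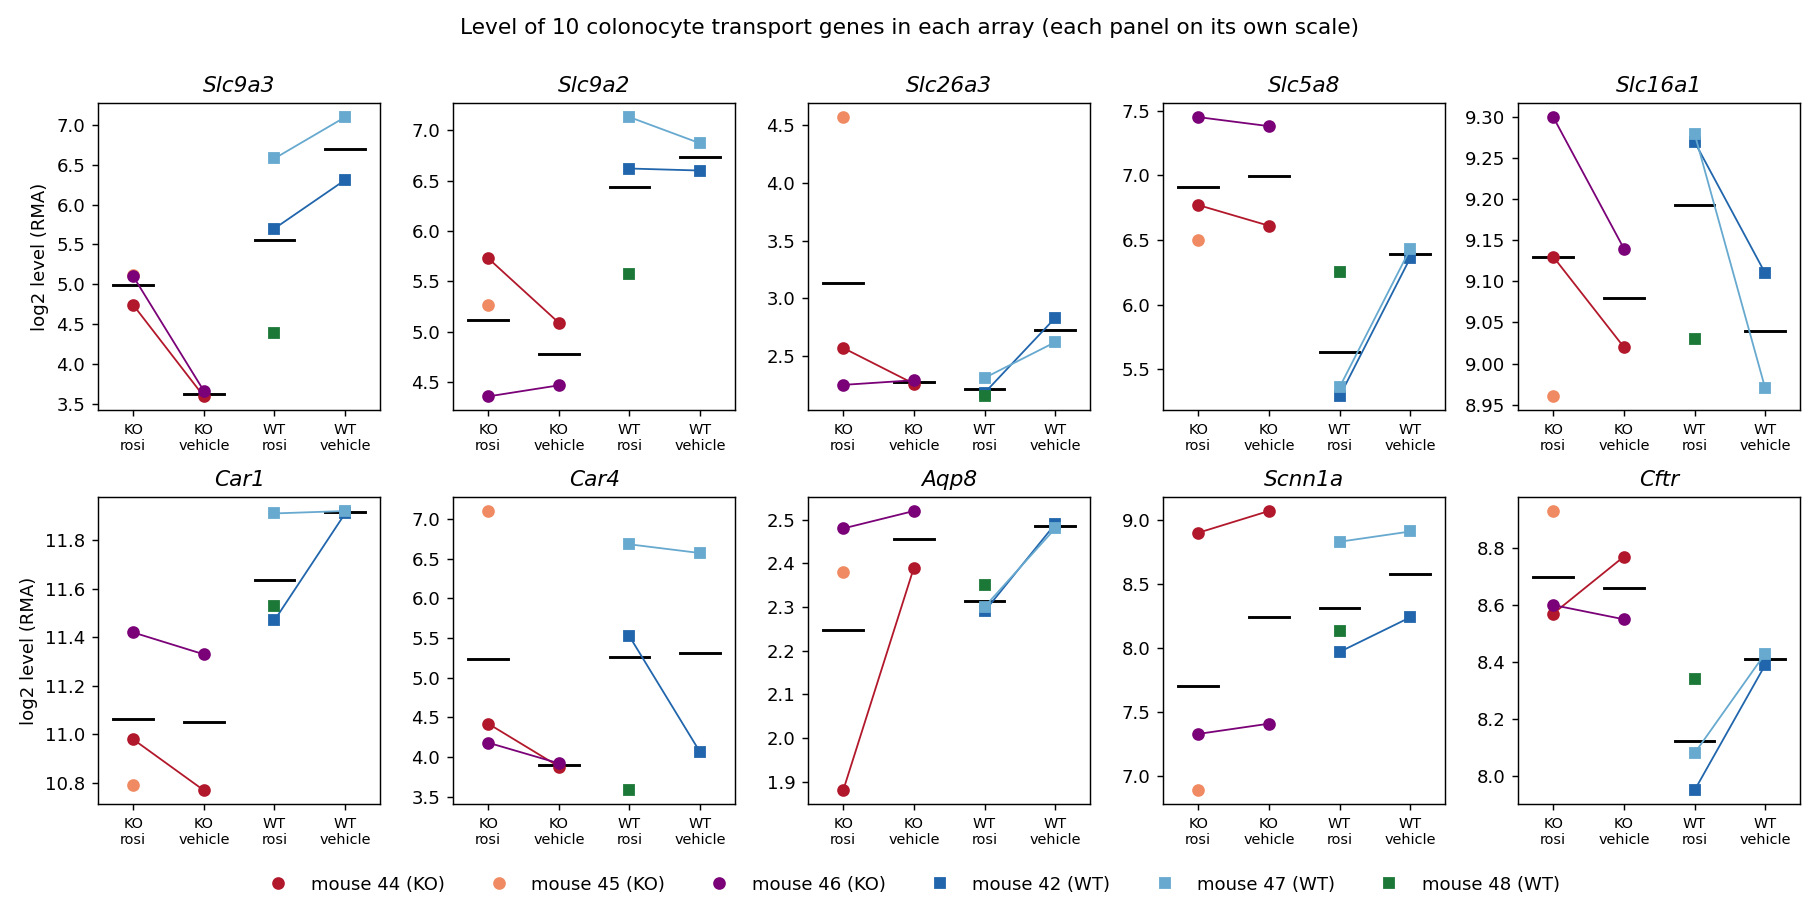
Log2 level (RMA) of each of the 10 genes in each array, each panel on its own scale, with knockout (KO, circles) left of wild type (WT, squares) and rosiglitazone (rosi) left of vehicle. Black bars are group means and lines join arrays of 1 mouse. Slc9a3 was lowest in the knockout vehicle arrays (3.59 and 3.66) and highest in the wild-type vehicle arrays (6.31 and 7.10).

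Slc9a3 encodes NHE3, the sodium-proton exchanger through which most electroneutral sodium uptake of the gut runs. It read 4.74, 5.12 and 5.10 in knockout rosiglitazone arrays, 3.59 and 3.66 in knockout vehicle, 5.70, 6.58 and 4.39 in wild-type rosiglitazone, and 6.31 and 7.10 in wild-type vehicle. Every knockout vehicle array lay below every other array, while the wild-type rosiglitazone array of mouse 48 lay below all 3 knockout rosiglitazone arrays. Under vehicle, Slc9a3 averaged 3.63 ± 0.05 in knockout and 6.71 ± 0.55 in wild-type organoids (SD, n = 2 each). The difference was -3.08 (SE 0.53, 95% interval -4.27 to -1.89), an 8.46-fold lower level in knockout, with an adjusted p of 0.363 over 23099 probe sets (limma). It did not pass the threshold of 0.05, but did without the array of mouse 48, a member of neither vehicle group (adjusted p = 0.0201). With only the 4 paired mice it was 0.0508, and over 18 alternatives the adjusted p ran from 0.0201 to 1.0 and the difference from -3.47 to -2.69. Under rosiglitazone the means were 4.99 ± 0.22 in knockout and 5.56 ± 1.10 in wild type (SD, n = 3 each). That difference was -0.57 (SE 0.44, adjusted p = 0.999), or -1.15 without mouse 48 and -0.06 without the rosiglitazone array of wild-type mouse 47. By group mean the order was wild-type vehicle, wild-type rosiglitazone, knockout rosiglitazone and knockout vehicle, and of these neighbours only the last pair did not overlap.

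The response of Slc9a3 to rosiglitazone had opposite signs in the genotypes. Within knockout mice 44 and 46 the rosiglitazone array exceeded the vehicle array by 1.15 and 1.44. Within wild-type mice 42 and 47 it differed by -0.62 and -0.52. Over all arrays the response was 1.36 (SE 0.49, n = 3 and 2) in knockout and -1.15 (SE 0.49, n = 3 and 2) in wild type, the second being -0.57 without mouse 48. The difference between these responses was 2.51 (SE 0.69, 95% interval 0.98 to 4.04), with an adjusted p of 1.0. With each mouse as its own block it was 1.86 (adjusted p = 0.502), so the difference did not pass in either fit. The knockout rosiglitazone arrays stood above both knockout vehicle arrays, yet did not reach the wild-type vehicle arrays.

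Slc9a2 encodes NHE2, a second apical sodium-proton exchanger of the gut. It read 5.73, 5.27 and 4.36 in knockout rosiglitazone arrays, 5.09 and 4.47 in knockout vehicle, 6.62, 7.13 and 5.57 in wild-type rosiglitazone, and 6.60 and 6.87 in wild-type vehicle. The groups did not overlap under vehicle, whereas under rosiglitazone the array of wild-type mouse 48 (5.57) lay below that of knockout mouse 44 (5.73). Under vehicle the difference between knockout and wild type was -1.96 (SE 0.50, n = 2 each, 95% interval -3.07 to -0.85, adjusted p = 0.846), a 3.89-fold lower level in knockout. Under rosiglitazone it was -1.32 (SE 0.41, n = 3 each, adjusted p = 0.905), and -0.94 without both arrays of mouse 46. The within-mouse responses were of mixed sign in knockout mice 44 and 46, at 0.64 and -0.11, and were 0.02 and 0.26 in wild-type mice 42 and 47.

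Slc26a3 encodes DRA, the apical chloride-bicarbonate exchanger of the colon. It read 2.57, 4.57 and 2.25 in knockout rosiglitazone arrays, 2.26 and 2.29 in knockout vehicle, 2.18, 2.31 and 2.15 in wild-type rosiglitazone, and 2.83 and 2.62 in wild-type vehicle. The array of mouse 45 was the only one above the array's own median over the tested probe sets. Without it the response in knockout moved to 0.13 from the 0.85 of all arrays (SE 0.52, adjusted p = 1.0), and the genotype difference under rosiglitazone moved to 0.19 from 0.92 (SE 0.46, adjusted p = 0.999). That array also had the highest goblet cell markers (above) and the highest Sis, a sugar-digesting enzyme of the small intestine, at 6.32 against 2.08 to 3.19 elsewhere. Sis did not stand for its list. The mean of all 10 small intestinal markers, Sis among them, was 3.75 in that array. In the rosiglitazone arrays of knockout mice 44 and 46 it was 3.64 and 3.47. The part of goblet cells or other cell types in the Slc26a3 of mouse 45 was not tested.

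Cftr encodes the cyclic AMP-activated anion channel of crypt cells, through which the colon secretes chloride. It read 8.57, 8.93 and 8.60 in knockout rosiglitazone arrays, 8.77 and 8.55 in knockout vehicle, 7.95, 8.08 and 8.34 in wild-type rosiglitazone, and 8.39 and 8.43 in wild-type vehicle. All 5 knockout arrays lay above all 5 wild-type arrays, though the nearest of them, 8.55 and 8.43, were close. Under rosiglitazone Cftr averaged 8.70 ± 0.20 in knockout and 8.12 ± 0.20 in wild type (SD, n = 3 each). The difference was 0.58 (SE 0.15, 95% interval 0.26 to 0.90, adjusted p = 0.655), and under vehicle it was 0.25 (SE 0.18, n = 2 each, adjusted p = 0.863). Within wild-type mice 42 and 47 rosiglitazone minus vehicle was -0.44 and -0.35, and within knockout mice 44 and 46 it was -0.19 and 0.05.

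Slc5a8 encodes SMCT1, the sodium-coupled carrier that takes butyrate and other short-chain fatty acids into colonocytes. It read 6.77, 6.50 and 7.45 in knockout rosiglitazone arrays, 6.61 and 7.38 in knockout vehicle, 5.29, 5.36 and 6.25 in wild-type rosiglitazone, and 6.36 and 6.43 in wild-type vehicle. All 5 knockout arrays again lay above all 5 wild-type arrays, the nearest being 6.50 and 6.43. Under rosiglitazone the means were 6.91 ± 0.49 in knockout and 5.63 ± 0.53 in wild type (SD, n = 3 each), a difference of 1.28 (SE 0.31, 95% interval 0.59 to 1.96), or 2.42-fold. Its adjusted p was 0.602, and 0.125 to 1.0 over 18 alternatives, so it was not called in any of them. Under vehicle the difference was 0.60 (SE 0.38, n = 2 each, adjusted p = 0.861), or 0.22 without the vehicle array of mouse 46 and 0.99 without that of mouse 44. Within wild-type mice 42 and 47 the rosiglitazone array differed from the vehicle array by -1.07 and -1.06, a gap almost equal in both mice. Within knockout mice 44 and 46 it differed by 0.16 and 0.07. Wild-type mouse 48, which had no vehicle array, read 6.25 with rosiglitazone. That was nearer to the wild-type vehicle arrays (6.36 and 6.43) than to the rosiglitazone arrays of mice 42 and 47 (5.29 and 5.36). By group mean the order was knockout vehicle, knockout rosiglitazone, wild-type vehicle and wild-type rosiglitazone, where only the first pair of neighbours overlapped. Over all arrays the wild-type response was -0.76 (SE 0.35, n = 3 and 2, adjusted p = 1.0). The difference between responses was 0.67 (SE 0.49, adjusted p = 1.0), or 0.29 without the vehicle array of knockout mouse 44 and 1.06 without that of mouse 46. With the mouse as a fixed block the wild-type response was -1.07 (adjusted p = 0.257) and the difference between responses 1.19 (adjusted p = 0.502).

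Slc16a1 encodes MCT1, the proton-linked carrier of lactate and butyrate. It read 9.13, 8.96 and 9.30 in knockout rosiglitazone arrays, 9.02 and 9.14 in knockout vehicle, 9.27, 9.28 and 9.03 in wild-type rosiglitazone, and 9.11 and 8.97 in wild-type vehicle. All 4 groups overlapped. The largest of its 4 differences between groups was 0.15 (SE 0.15, 95% interval -0.17 to 0.48, adjusted p = 1.0), for rosiglitazone against vehicle in wild type. All 4 within-mouse responses were above 0, at 0.11 and 0.16 in knockout mice 44 and 46 and 0.16 and 0.31 in wild-type mice 42 and 47.

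Car1 encodes a cytosolic carbonic anhydrase that is abundant in colonocytes. It read 10.98, 10.79 and 11.42 in knockout rosiglitazone arrays, 10.77 and 11.33 in knockout vehicle, 11.47, 11.91 and 11.53 in wild-type rosiglitazone, and 11.91 and 11.92 in wild-type vehicle. All 5 knockout arrays lay below all 5 wild-type arrays, by as little as the gap between 11.42 (mouse 46) and 11.47 (mouse 42). Under vehicle the means were 11.05 ± 0.39 in knockout and 11.92 ± 0.01 in wild type (SD, n = 2 each), a difference of -0.87 (SE 0.25, 95% interval -1.41 to -0.32, adjusted p = 0.846). Under rosiglitazone it was -0.57 (SE 0.20, n = 3 each, adjusted p = 0.957). Within-mouse responses were 0.21 and 0.09 in knockout mice 44 and 46, against -0.45 and -0.01 in wild-type mice 42 and 47.

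Car4 encodes a carbonic anhydrase anchored to the outer face of the apical membrane. It read 4.42, 7.10 and 4.18 in knockout rosiglitazone arrays, 3.88 and 3.92 in knockout vehicle, 5.52, 6.68 and 3.58 in wild-type rosiglitazone, and 4.06 and 6.57 in wild-type vehicle. Mice 45 and 47 were high and mouse 48 lowest, and the arrays of mouse 42 lay far apart. The 4 differences between groups ran from -1.41 (SE 1.14, knockout against wild type under vehicle) to 1.33 (SE 1.04, response in knockout), which moved to 0.40 without mouse 45. The first was -0.16 without the vehicle array of mouse 47 and -2.66 without that of mouse 42. Within-mouse responses were above 0 in all 4 mice, at 0.54 and 0.26 in knockout mice 44 and 46 and 1.45 and 0.11 in wild-type mice 42 and 47.

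Scnn1a encodes the alpha subunit of the epithelial sodium channel, the aldosterone-regulated route of sodium uptake in the distal colon. It read 8.90, 6.89 and 7.33 in knockout rosiglitazone arrays, 9.07 and 7.41 in knockout vehicle, 7.97, 8.83 and 8.13 in wild-type rosiglitazone, and 8.24 and 8.91 in wild-type vehicle. Arrays of the same mouse were alike, and knockout mice 44 and 46 lay farther apart (means 8.98 and 7.37) than the genotypes did. The within-mouse responses were all slightly below 0, at -0.18 and -0.08 in knockout mice 44 and 46 and -0.27 and -0.08 in wild-type mice 42 and 47. The difference between knockout and wild type was -0.60 (SE 0.53, n = 3 each) under rosiglitazone and -0.33 (SE 0.65, n = 2 each) under vehicle, with overlap in both and adjusted p of 0.999 and 0.943. Aqp8, the water channel of surface colonocytes, was dim throughout, at 1.88 to 2.48 with rosiglitazone and 2.39 to 2.52 with vehicle in knockout arrays, against 2.29 to 2.35 and 2.48 to 2.49 in wild-type arrays. Its 4 differences between groups ran from -0.21 (SE 0.17, response in knockout) to -0.03 (SE 0.19, genotype under vehicle).

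**Figure D2:**
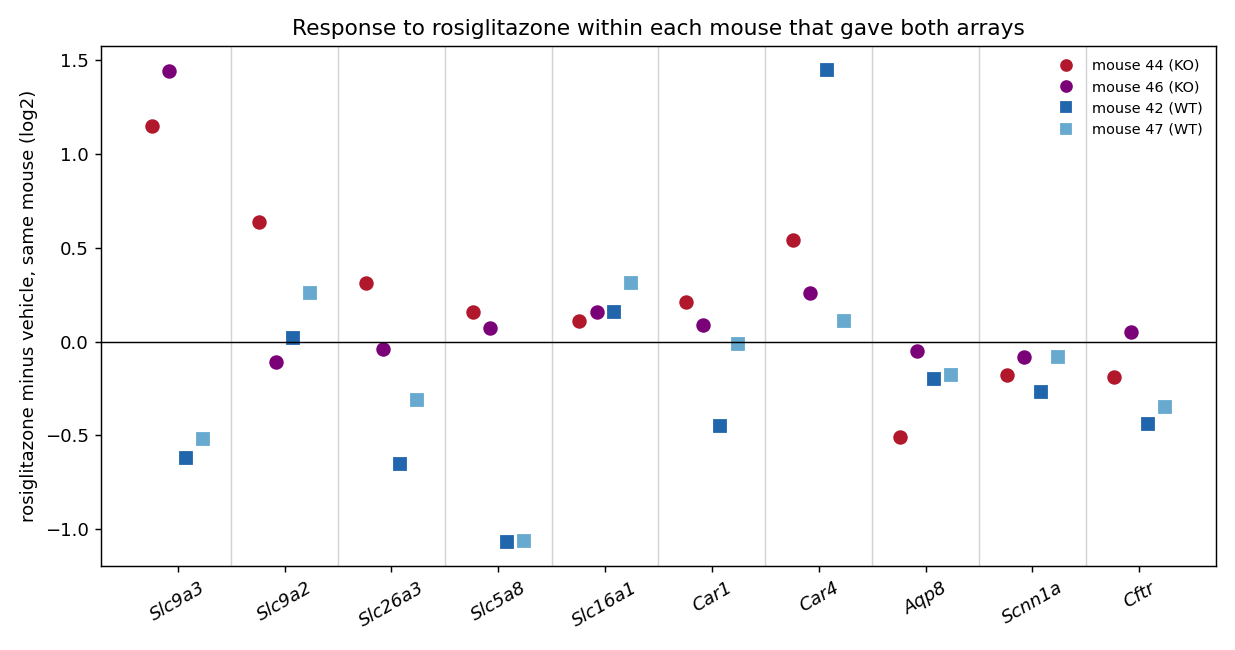
Rosiglitazone minus vehicle (log2) within each of the 4 mice that gave both arrays, knockout mice 44 and 46 (circles) left of wild-type mice 42 and 47 (squares). Slc9a3 lay at 1.15 and 1.44 in knockout and at -0.62 and -0.52 in wild-type mice, and Slc5a8 at 0.16 and 0.07 in knockout and -1.07 and -1.06 in wild-type mice.

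The drug response did not pass for any of the 10 genes in limma, in either genotype or as the difference between responses. For rosiglitazone against vehicle in knockout, 0 of 10 passed, and 0.0% of the 23099 probe sets did. In wild type the count was again 0 of 10 against a background of 0.0%, as it was for the difference between responses (0 of 10, 0.0%). At an unadjusted p under 0.05 each of these comparisons held 1 of the 10 genes, Slc9a3, against 3.06% of all probe sets for the knockout response, 0.991% for the wild-type response and 2.32% for their difference. In wild type, 9 of the 10 were lower after rosiglitazone, with a median of -0.29, against 0.01 over all probe sets. In knockout 7 of 10 were higher, with a median of 0.05 against -0.01. Markers of colonocytes (14 of 15, median -0.13) and of goblet cells (8 of 9, median -0.51) were also lower in wild type, where 10567 of 23099 probe sets were. The goblet cell mean with rosiglitazone was lowest in mouse 48 (3.89), which had no vehicle array. In mice 42 and 47 it was 4.85 and 4.60, against 5.20 and 4.76 with vehicle. Neither list held a gene at an unadjusted p under 0.05 for that response. In knockout 11 of the 15 colonocyte markers were lower (median -0.09), where 12379 of 23099 probe sets were. There 9 of 9 goblet cell markers were higher (median 1.5), where 10720 of 23099 probe sets were. That rise drew on mouse 45, which had no vehicle array and a goblet cell mean of 7.54. Within mice 44 and 46 the mean was 5.69 and 3.56 with rosiglitazone, against 5.12 and 3.56 with vehicle. For the difference between responses 9 of 9 goblet cell markers were higher (median 1.93), as were 7 of the 10 transport genes (median 0.49). Colonocyte markers were higher in 9 of 15 (median 0.05). Markers of enteroendocrine and tuft cells were higher in 9 of 10 (median 0.20), and those of small intestinal enterocytes in 8 of 10 (median 0.23). Most genes of these last lists were dim. Over all probe sets 10302 were higher for that difference (median -0.03). The part of these cell types in the responses of the transport genes was not tested.

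Groups that did not overlap were also counted. In knockout, rosiglitazone arrays all lay above vehicle arrays for 2 of 10 genes, Slc9a3 and Car4 (background 5.81%), and below them for 0 of 10 (7.93%). In wild type, they lay above for 0 of 10 (8.65%) and below for 5 of 10 (6.78%), which were Slc26a3, Slc5a8, Car1, Aqp8 and Cftr. Of these, Slc26a3 and Aqp8 were dim in all wild-type arrays, so their order there may not be measurable. Within mice, the response was above 0 in both knockout mice for 5 of 10 genes (24.4% of probe sets) and below 0 in both for 2 of 10 (25.4%). In both wild-type mice it was above 0 for 3 of 10 (25.3%) and below 0 for 7 of 10 (25.8%). The 7 genes lower in both wild-type mice were Slc9a3, Slc5a8, Car1, Scnn1a, Cftr and the dim Slc26a3 and Aqp8.

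Slc9a3, Slc5a8 and Car1 responded above 0 in both knockout mice and below 0 in both wild-type mice, which 5.81% of probe sets did. The reverse pattern held for 0 of the 10 genes and 6.01% of probe sets. With a step of 0.5 on each side, chosen after the values were seen, 4 probe sets of 23099 (0.0173%) remained, those of Slc9a3, Cyp2d26, Oit1 and Tgfbi. Their responses in knockout mice 44 and 46 lay between 0.51 and 1.44, and in wild-type mice 42 and 47 between -0.93 and -0.52. Slc9a3 had the highest knockout responses of the 4. Its wild-type responses, -0.62 and -0.52, lay close to the step, so its place among the 4 depends on the step chosen. Oit1 fell farther in both wild-type mice (-0.83 and -0.91).

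Under vehicle, knockout against wild type gave 0 of 10 genes at the adjusted threshold (background 0.0%) and 3 of 10 at an unadjusted p under 0.05 (5.69%), namely Slc9a3, Slc9a2 and Car1. Knockout arrays lay below wild-type arrays without overlap for 5 of 10 genes (16.1%), Slc9a3, Slc9a2, the dim Slc26a3, Car1 and Car4. They lay above them for 2 of 10 (23.0%), Slc5a8 and Cftr. The median difference of the 10 was -0.39, against 0.03 over all probe sets. Under rosiglitazone 0 of 10 passed the adjusted threshold, which 5 probe sets did (0.0216%), and 4 of 10 had an unadjusted p under 0.05 (4.81%), Slc9a2, Slc5a8, Car1 and Cftr. Here arrays did not overlap for Slc5a8 and Cftr, higher in knockout (2 of 10, 4.22%), or for Car1, lower in knockout (1 of 10, 4.47%). The same 3 genes separated all 5 knockout from all 5 wild-type arrays, 2 of 10 higher (0.905%) and 1 of 10 lower (1.02%), although arrays of a mouse share their source.

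The mean of the colonocyte markers overlapped between the genotypes (above), whereas that of the low-level markers of small intestinal enterocytes did not. The mean over those 10 genes was 3.47 to 3.75 in knockout rosiglitazone and 3.32 to 3.35 in knockout vehicle arrays, against 2.92 to 3.17 in wild-type rosiglitazone and 3.08 to 3.17 in wild-type vehicle arrays. None of the 10 passed in limma (3 at an unadjusted p under 0.05 under rosiglitazone, where 4.81% of all probe sets were, and 1 under vehicle, where 5.69% were), and 8 of them had a mean below the median of tested probe sets. Gene by gene, 8 of the 10 were higher in knockout under rosiglitazone and 2 lower. Under vehicle 5 were higher and 5 lower, so the mean did not stand for each gene. Of all 23099 probe sets, 11674 were higher under rosiglitazone and 12851 under vehicle. The part of this difference between means in the genotype differences of the transport genes was not tested.

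**Figure D3:**
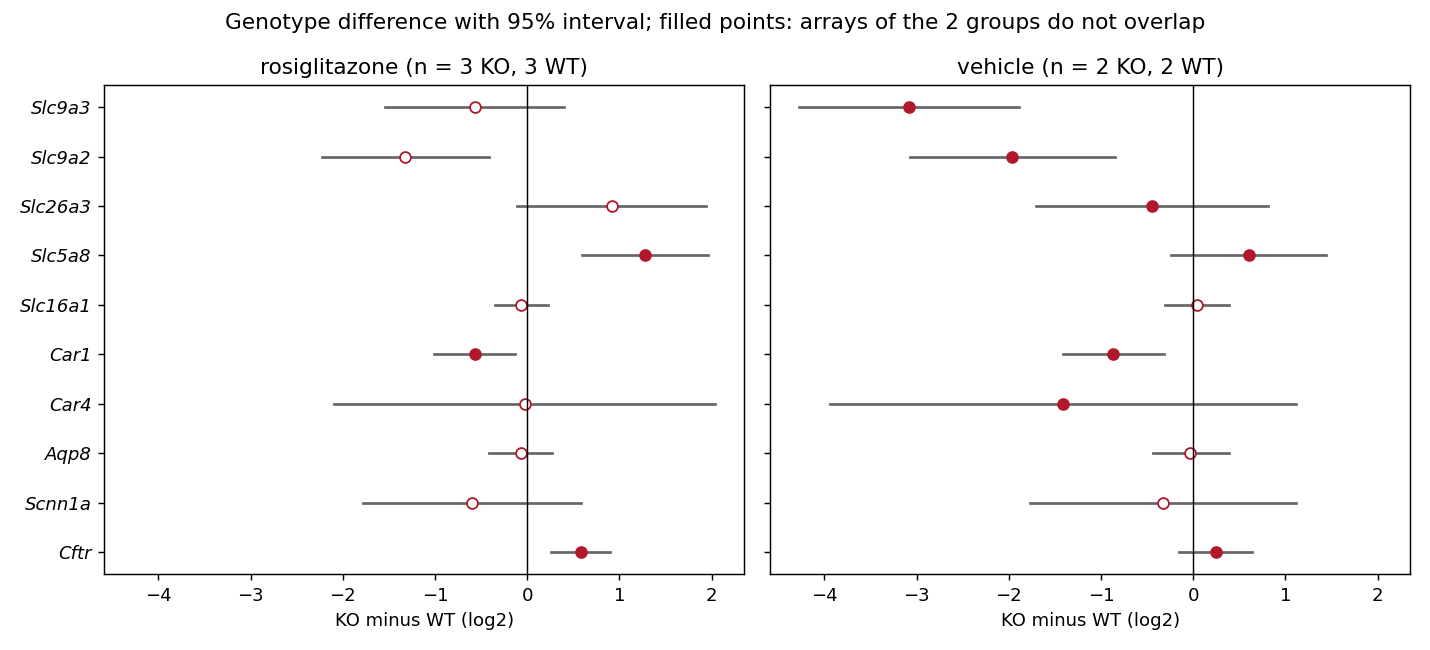
Knockout minus wild type (log2) for each gene under rosiglitazone (left, n = 3 and 3) and vehicle (right, n = 2 and 2), with 95% intervals from limma. Filled points mark genes whose arrays did not overlap between genotypes. Slc9a3 stood at -0.57 under rosiglitazone and -3.08 under vehicle, and Slc5a8 at 1.28 and 0.60.

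The genes did not vary as a single block across the 10 arrays, which share mice in pairs and are described here without a test. Slc9a3 and Slc9a2 had the highest Pearson r of any pair, 0.821, and Slc9a3 and Car1 had 0.748. Slc5a8 and Cftr had 0.729. Between these blocks the sign was negative, at -0.829 for Slc9a2 and Slc5a8 and -0.701 for Car1 and Cftr. Arrays of both genotypes were pooled here. Slc9a3, Slc9a2 and Car1 had lower means in knockout under both treatments, and Slc5a8 and Cftr had higher ones. These r values therefore carry the genotype differences given above and are not separate from them. Aqp8 and Slc16a1, which barely varied, had r between -0.588 and 0.338 with the other genes of the set.

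**Figure D4:**
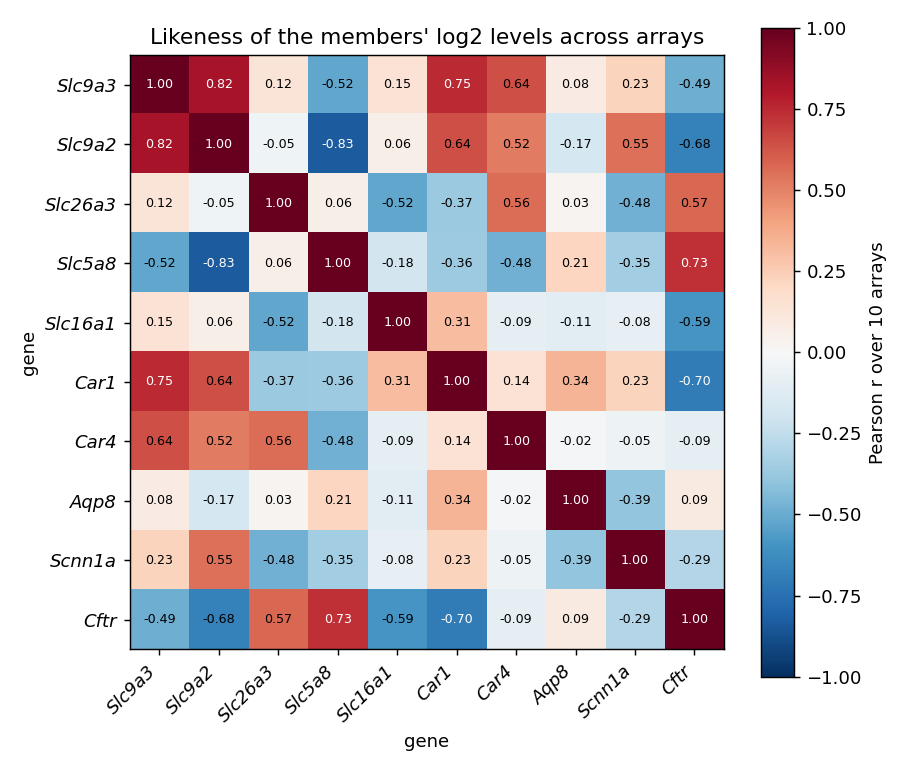
Pearson r between the log2 levels of each pair of the 10 genes over 10 arrays, red for positive and blue for negative values. Slc9a3, Slc9a2 and Car1 had positive r with each other (0.821, 0.748 and 0.643), as did Slc5a8 and Cftr (0.729), and every r between these sets was negative. Both genotypes were pooled, so these values carry the genotype differences.

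Among 9452 genes with a mean above the median of tested probe sets, those most like each transport gene over the 10 arrays were sought by Pearson r. For Slc9a3 they were Trit1 (0.965), Psmb9, a subunit of the immunoproteasome (0.929), and Car12, a membrane-bound carbonic anhydrase (0.928). Slc9a2 was nearest to Gna14, a G protein subunit (0.983), Pon2 (0.963) and Fut2, a fucosyltransferase of the gut surface (0.962). Slc5a8 was nearest to Liph, a phospholipase (0.924), Ifnar2, a chain of the type I interferon receptor (0.909), and Togaram1 (0.909).

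Car1 was most like Vwa5a (0.921), Flvcr2 (0.919) and Xdh, the enzyme that makes uric acid (0.902). Cftr was most like Nadk2, a mitochondrial NAD kinase (0.927), Oxct1, the enzyme that activates ketone bodies for use (0.903), and Wdr83os (0.868). For Slc16a1 the genes were Epb41l4b (0.883), Ehhadh, a peroxisomal enzyme of fatty acid oxidation (0.866), and Hk2, a hexokinase (0.862). Scnn1a gave Phf11d (0.958), Camk2b (0.936) and Trim30a (0.926), and Car4 gave Cpsf4 (0.938), Zfp110 (0.935) and Ganab (0.924). The dim genes Slc26a3 and Aqp8, searched over 9453 genes, gave Rangrf (0.975), Snord49a (0.952) and Ece2 (0.936), and Pknox1 (0.925), D6Wsu163e (0.902) and A730017L22Rik (0.900). As the highest of so many over 10 arrays, these values are descriptions only.

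Other genes of the same pathways were read from lists of sodium and proton transport, chloride, bicarbonate and potassium transport, carboxylate transport, other carbonic anhydrases, other aquaporins and transport regulators. Across these 6 lists 0 genes passed limma's adjusted threshold in either direction in any of the 5 comparisons. Under rosiglitazone, knockout against wild type, the counts at an unadjusted p under 0.05 were 1 of 10 sodium and proton partners, 5 of 13 chloride, bicarbonate and potassium partners, 1 of 9 carboxylate partners, 1 of 11 carbonic anhydrases, 0 of 10 aquaporins and 3 of 12 regulators, where 4.81% of all probe sets had such a p. Under vehicle they were 3 of 10, 4 of 13, 0 of 9, 1 of 11, 1 of 10 and 0 of 12, in the same order, against 5.69% of all probe sets.

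Of the sodium channel's other subunits, Scnn1b had group means of 2.89 to 3.10 and Scnn1g of 2.55 to 2.78, so both were dim where Scnn1a was not. Regulators of that route were measured as well. Nr3c2, the aldosterone receptor, had group means of 6.46 to 6.69, and Hsd11b2, which shields it from cortisol-like hormones, of 3.45 to 4.05. Sgk1, the aldosterone-induced kinase, averaged 4.98 in knockout and 5.67 in wild-type arrays under rosiglitazone, a difference of -0.69 (SE 0.23, n = 3 each, adjusted p = 0.94) without overlap. Under vehicle its arrays overlapped, at a difference of -0.17 (SE 0.28, n = 2 each, adjusted p = 0.929). Slc9a3r1, the scaffold that holds NHE3 at the membrane, had means of 9.64 to 9.76, and Atp12a, the colonic proton-potassium pump, of 4.93 to 5.55.

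Slc26a2, a sulfate transporter, averaged 9.30 in knockout and 9.78 in wild-type arrays under rosiglitazone, a difference of -0.48 (SE 0.14, n = 3 each, adjusted p = 0.864). Slc26a6, another anion exchanger, averaged 4.51 in knockout and 3.97 in wild type, a difference of 0.54 (SE 0.18, n = 3 each, adjusted p = 0.937). Under vehicle the differences were -0.41 for Slc26a2 (SE 0.17, n = 2 each, adjusted p = 0.855) and 0.53 for Slc26a6 (SE 0.22, adjusted p = 0.855). Arrays of the genotypes did not overlap for either under either treatment, and with Sgk1 these genes were singled out after their values were seen. On the basolateral side Slc12a2, the sodium-potassium-chloride cotransporter, had group means of 8.85 to 9.35 and Kcnq1, a potassium channel, of 10.40 to 10.50, while Best2, an anion channel of goblet cells, was dim (2.34 to 2.54). Slc16a3, the lactate exporter MCT4, had means of 7.60 to 8.71, and Bsg, the chaperone of the MCT carriers, of 11.33 to 11.62.

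Car2, the other abundant cytosolic carbonic anhydrase, had group means of 11.81 to 11.99, and Aqp4, a basolateral water channel, was dim (2.43 to 2.53). The intestinal transcription factors Cdx2 (8.30 to 8.57) and Hnf4a (10.00 to 10.24) and the surface keratin Krt20 (7.31 to 7.57) were present in all 4 groups. Krt20 read 6.12 in the array of mouse 45, the lowest of the 10 arrays. The remaining markers gave 0 calls too, whether of colonocytes (15 measured), goblet cells (9), stem and proliferating cells (9), enteroendocrine and tuft cells (10), small intestinal enterocytes (10), distal colon position (3) or cells outside the epithelium (15), with 0 to 3 genes of a list at an unadjusted p under 0.05 in any comparison, against 0.991% to 5.69% of all probe sets.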

How the data were processed

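Total RNA of colonic organoids from 6 mice was measured on 10 Affymetrix arrays in 4 groups. The deposited values are log2 expression per probe set from RMA, per the submitters' processing notes, a method in which background correction, quantile normalization and summary of probes are done together. Neither the RMA version nor the chip definition is given in the sources used here. The deposited table holds 35556 probe sets, of which 23099 had a platform annotation and were tested, while 12457 were left out. Log2 values ran from 0.73 to 13.55, and 0 pairs of arrays were identical. Arrays give no count depth, so their number limits the precision.

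Differences were tested with limma 3.58.1 in R 4.3.3 (lmFit with a mean per group over all 10 arrays, eBayes, two-sided, 6 residual and 4.39 prior degrees of freedom) and adjusted by the Benjamini-Hochberg method over 23099 probe sets, with a threshold of 0.05. The test was tried first on simulated arrays drawn without shared mice, so that trial did not check the pairing. There were 5 comparisons. Intervals are 95%. Samples of a group are different mice, but 4 mice gave arrays of both treatments, and this fit takes all 10 arrays as independent. Its p-values and intervals therefore leave out the pairing within mice. The labels give each array's mouse, so rosiglitazone and vehicle arrays of 4 mice are paired. In a check of this pairing, the difference between 2 mice under rosiglitazone correlated with that under vehicle at r = 0.487 in knockout and 0.44 in wild type. Fits with the mouse as a random block (statmod 1.5.0, estimated correlation within mice 0.438) or a fixed block were alternatives, beside centring, repeated quantile normalization, bright probe sets only, only the groups compared, all probe sets, and leaving out each array.

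The 10 transport genes and the 13 other lists (147 genes, 136 measured) were chosen with earlier results of these data known. By the rule for names, all 10 genes, any list gene that passed, 20 pathway genes and the 3 most correlated genes of each of the 10 are named. Muc2, Sis, Cyp2d26, Oit1 and Tgfbi were added after their values were seen.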

Additional observations from a re-analysis of the deposited data

Results flagged for a closer look

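For 3 genes the rosiglitazone response had one sign in both knockout mice and the other sign in both wild-type mice. The mean within-mouse response of knockout minus that of wild type was 1.86 for Slc9a3, 1.19 for Slc5a8 and 0.38 for Car1 (log2, 2 mice each). Tested in limma with the mouse as a fixed block, the difference had an adjusted p of 0.502 for Slc9a3, 0.502 for Slc5a8 and 0.972 for Car1. Over all 10 arrays the difference was 2.51 for Slc9a3, 0.67 for Slc5a8 (0.29 without the vehicle array of knockout mouse 44) and 0.30 for Car1 (0.02 without that array), each with an adjusted p of 1.0. In Car1 the response of wild-type mouse 47 was only -0.01.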

How the results depend on the processing

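Of 880 alternative values for the 10 genes in the 5 comparisons, 830 kept their direction and their side of the threshold, 1 newly passed (Slc9a3 under vehicle, knockout against wild type, -3.08, adjusted p = 0.0201, without the array of mouse 48) and 49 turned direction, none of them past the threshold; the cause was not tested. Each gene had a single probe set, so no other could be tried. With the mouse as a random replicate block the Slc5a8 and Cftr responses in knockout were 0.00 and -0.01 and the Car4 response in wild type 0.31. With the mouse as a fixed replicate block (4 paired mice) the Slc5a8 and Cftr responses in knockout were 0.12 and -0.07, the Slc9a2 and Car4 responses in wild type 0.14 and 0.78, and the differences between responses -0.39 for Car4 and 0.05 for Scnn1a. Centring each array gave 0.02 for Slc16a1, 0.06 for Car4 and 0.02 for Aqp8 between genotypes under rosiglitazone, and 0.10 for Aqp8 under vehicle. Repeated quantile normalization gave 0.09 for Car4 under rosiglitazone and 0.04 for the Aqp8 difference between responses. Without mouse 46, a setting chosen after seeing the data, the values were 0.02 (Slc5a8) and -0.02 (Cftr) for the knockout response, -0.02 (Slc16a1) and 0.50 (Scnn1a) between genotypes under vehicle, and 0.51 (Car4) under rosiglitazone.

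Leaving out each array in turn, the knockout response ran from -0.47 to 0.30 for Slc5a8, -0.04 to 0.13 for Slc16a1, -0.26 to 0.29 for Car1, -1.37 to 0.29 for Scnn1a and -0.07 to 0.15 for Cftr. The wild-type response ran from -0.64 to 0.14 for Slc9a2, -1.31 to 1.20 for Car4 and -0.60 to 0.07 for Scnn1a, and the difference between responses from -0.16 to 0.14 for Aqp8 and -1.11 to 0.56 for Scnn1a. Between genotypes the value under vehicle ran from -0.03 to 0.11 for Slc16a1, -0.09 to 0.04 for Aqp8 and -1.16 to 0.50 for Scnn1a, and under rosiglitazone from -0.15 to 0.02 for Slc16a1, -0.96 to 0.69 for Car4 and -0.18 to 0.12 for Aqp8. Where this left a group with 1 array, that array was assumed to vary like the other groups.

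Across all probe sets, calls between genotypes under vehicle numbered 0, against 1 with the random replicate block, 6 on the 4 paired mice, 2 with centring, 1 with quantile normalization, 1 with bright probe sets, 4 with only the groups compared, and 0 to 6 with each array left out. Under rosiglitazone they numbered 5, against 16 on the 4 paired mice, 1 with quantile normalization, 1 with only the groups compared, 1 over all probe sets of the table, 1 without mouse 46, and 1 to 23 with each array left out. The knockout response had 0 calls, and 1 with the random replicate block. With 2 arrays in each vehicle group and dim signals for Aqp8 and Slc26a3, small differences in these genes could not be measured.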
